A study of Mus musculus with 6 samples.

Results

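The matrix metalloproteinases (MMPs), the ADAMTS proteases and their tissue inhibitors (TIMPs) were followed in embryonic submandibular glands (eSMGs) treated with AMD3100. Every gene whose symbol names it as a member of these families was taken, which gave 46 of the 23260 genes counted, with 23 MMPs, 19 ADAMTS and 4 TIMPs. Whole glands, with epithelium and mesenchyme, were taken from ICR mouse embryos at embryonic day 14 and cultured for 6 h, either as control or with 50 µM AMD3100, which blocks the chemokine receptor CXCR4. Each group had 3 tubes (replicates), and each tube pooled up to 10 glands, so that values belong to pools and not to single embryos. The labels do not say whether the tubes came from separate litters. The study's methods speak of independent experiments for its results in general, without naming the sequenced tubes, so that the spread between them may be partly technical. No vehicle for the control is named in the sources used here. The 3′ mRNA libraries held between 9051595 and 14393031 counts on genes. Rn45s, the ribosomal RNA precursor, took between 16.2% and 32.5% of them.

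MMPs are zinc-dependent enzymes that cut collagens, laminins, proteoglycans and growth factor carriers of the extracellular matrix. Most are made as inactive proenzymes, and several are activated by furin-like convertases, by plasmin or by other MMPs. ADAMTS proteases are secreted relatives with thrombospondin repeats. Some cut versican and aggrecan, and others remove the amino-terminal propeptide of fibrillar procollagens. TIMPs bind the active site of these enzymes and block them. In branching glands, matrix is cut where clefts and buds form, and both the epithelium and the mesenchyme are known to make these enzymes.

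Expression is given as CPM, read counts scaled to a common library size after TMM normalization, and log2FC is the fitted log2 ratio of AMD3100 over control, printed with its standard error (SE). Reads came from the 3′ end of each transcript, so that levels were not divided by transcript length. Of the 46 members, 29 passed edgeR's filter on low counts (11 MMPs, 15 ADAMTS and 3 TIMPs) and were compared between groups. A further 10 members had counts but did not pass, and 7 had no count in any library. As the floor of a library, 3 counts corresponded to between 0.173 and 0.368 CPM. PCR copies are not independent molecules, so that this floor accounts for counting error alone.

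No member passed the test of AMD3100 against control. In edgeR's quasi-likelihood test, 0 of the 29 members passed a fold change over 1.5 with an unadjusted p under 0.05, where 1.68% of the 13610 genes tested did (228 genes). The lowest unadjusted p of any member was 0.181 (Adamts3), and every member had an adjusted p of 1. After Benjamini-Hochberg adjustment 0 of the 13610 genes were called by edgeR, and DESeq2 called 5 genes, none of them a member. Fitted levels were higher in AMD3100-treated eSMGs for 19 members and lower for 10, with a median log2FC of 0.07, while over all genes tested 52.2% were higher and the median was 0.02. With replicate number as a block, 598 genes (4.39%) passed both thresholds, still without any member, and the members split into 15 higher and 14 lower. Without control replicate 2, 13 members were higher and 17 lower, and without control replicate 3 the counts were again 13 and 17. As glands were sequenced in bulk, fewer cells of a type and less RNA per cell cannot be told apart.

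**Figure D1:**
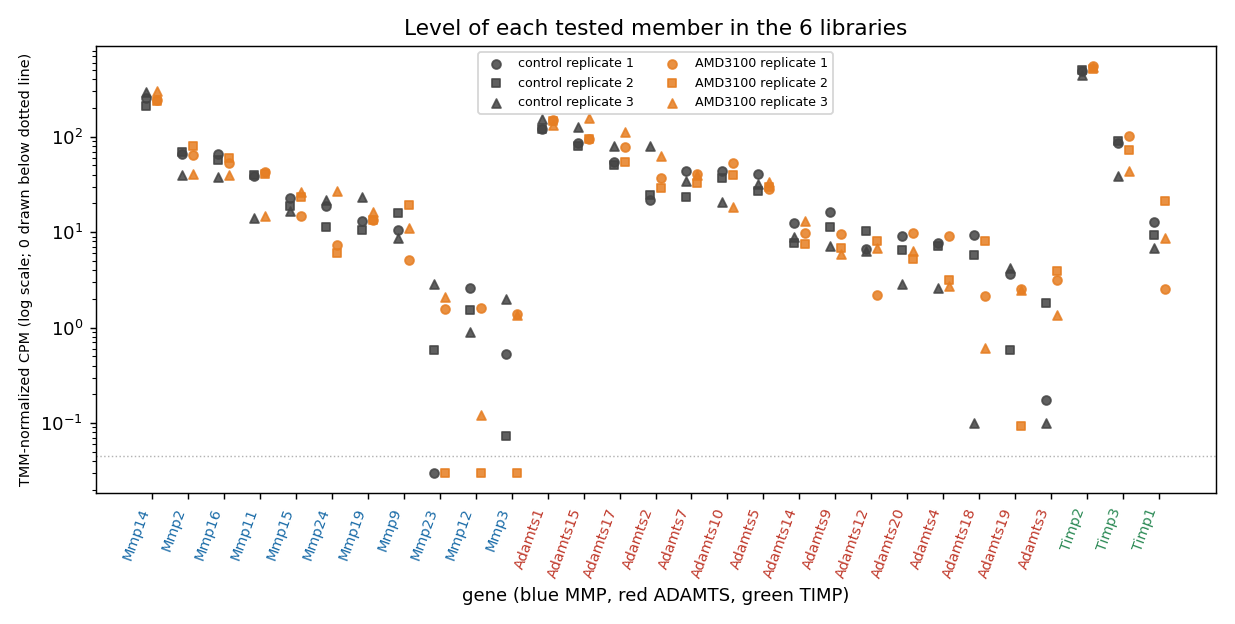
TMM-normalized CPM (log axis) of the 29 members that passed the filter on low counts, with 3 control and 3 AMD3100 libraries per gene. Points below the dotted line are libraries with 0 counts. Timp2 stood highest, between 440.3 and 548 CPM, and the groups of all other members overlapped.

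The members fell into an expressed part and a nearly silent one, and 10 of the low members lie side by side on chromosome 9. Between Mmp13 and Mmp7 (chr9:7272514-7699585, GRCm38) lie the genes of the collagenases Mmp1a, Mmp1b, Mmp8 and Mmp13, the stromelysins Mmp3 and Mmp10, the macrophage elastase Mmp12, the matrilysin Mmp7, the enamel protease Mmp20 and Mmp27. All 10 together had 219 counts over the 6 libraries. No count was seen for 5 of them, and no library had more than 30 counts on any. Only Mmp3 and Mmp12 of this cluster passed the filter.

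The promoters of the cluster are shown because most of them carried letters that were rare or not found in the other members with a promoter entry. The 250 bases before each RefSeq transcript start (GRCm38.p6) were searched on both strands for TGANTCA, the letters bound by AP-1 (FOS and JUN), for TATAAA, the TATA box, and for GGGCGG, the GC box. RefSeq promoters were matched for 32 of the 46 members, some with more than 1 start, namely for all 10 of the cluster and for 22 of the 36 others. The comparison therefore leaves out 14 members outside the cluster, among them Mmp2, Mmp9 and Mmp16. TGANTCA was found in 8 of the 12 promoters of the cluster, in 0 of the 23 promoters of other members and in 6.75% of all 32851 promoters. TATAAA was found in 7 of the 12, in 2 of the 23 and in 12.4% of all promoters. GGGCGG was found in 0 of the 12, in 16 of the 23 and in 32.7% of all promoters. These counts describe letters and not binding. G and C made up between 37.2% (Mmp10) and 53.2% (a start of Mmp7) of the bases in the cluster promoters. In those of the other members they made up between 53.6% (Mmp21 and Timp4) and 79.2% (Mmp24). The part of this base composition in the motif counts was not tested. Mmp8 and Mmp27, which are not printed, carried none of these motifs. The last 100 bases before the start are printed 5′ to 3′ for 3 cluster genes and, for comparison, for Mmp14, Timp2 and Adamts1, the most abundant member of each family, with any of these motifs in capitals. Mmp3 (chr9:7445722-7445821, plus strand), Mmp10 (chr9:7502242-7502341, plus strand) and Mmp13 (chr9:7272414-7272513, plus strand) carried TGANTCA and then TATAAA. Mmp14 (chr14:54431498-54431597, plus strand), Timp2 (chr11:118355412-118355511, minus strand) and Adamts1 (chr16:85803114-85803213, minus strand) carried GGGCGG, and Adamts1 also TATAAA.
Mmp3: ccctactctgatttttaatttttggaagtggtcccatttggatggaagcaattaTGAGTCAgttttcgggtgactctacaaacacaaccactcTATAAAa
Mmp10: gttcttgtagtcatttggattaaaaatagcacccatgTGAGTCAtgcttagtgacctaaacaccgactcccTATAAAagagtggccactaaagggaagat
Mmp13: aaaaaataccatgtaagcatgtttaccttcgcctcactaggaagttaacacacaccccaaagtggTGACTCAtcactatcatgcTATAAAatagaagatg
Mmp14: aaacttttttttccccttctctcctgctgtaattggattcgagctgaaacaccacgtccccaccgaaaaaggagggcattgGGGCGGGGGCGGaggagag
Timp2: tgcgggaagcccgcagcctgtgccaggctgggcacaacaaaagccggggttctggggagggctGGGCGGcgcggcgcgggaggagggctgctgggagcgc
Adamts1: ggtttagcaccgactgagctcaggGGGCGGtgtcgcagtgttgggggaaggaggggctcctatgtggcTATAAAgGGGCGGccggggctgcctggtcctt

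Counts in the cluster were low in every library, and the groups overlapped. Mmp3, which cuts proteoglycans and laminin, was counted 6, 1 and 20 times in control and 24, 0 and 11 times in AMD3100 libraries. Mmp12 was counted 30, 21 and 9 times in control and 28, 0 and 1 times in AMD3100 libraries, a log2FC of -1.48 ± 1.63 (SE) that ranged from -4.62 (without AMD3100 replicate 1) to -0.92 (without AMD3100 replicate 2). Mmp8, stored in neutrophil granules, had 15 counts in control replicate 2 and 7, 8 and 7 in the AMD3100 libraries. Mmp10 had all 26 of its counts in control replicate 2, and Mmp13 all 5 in control replicate 3. Part of the 3′ end of Mmp12 is overlapped by Mmp1b on the opposite strand.

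Outside the cluster, Mmp14 was the most abundant MMP. It encodes a membrane-type enzyme that cuts fibrillar collagen at the cell surface and activates pro-MMP2 (chr14:54431598-54442456). Mmp14 was at 253.3, 207.8 and 291.8 CPM in control and at 241.2, 239.7 and 298.9 CPM in AMD3100-treated eSMGs. The ranges overlapped, and the highest value of each group came from replicate 3. The means were 251 ± 42.0 and 260 ± 33.7 CPM (SD, n = 3 each), a log2FC of 0.05 ± 0.28 (SE). The 95% interval ran from 0.668-fold to 1.61-fold. Of the 50-base stretches at the 3′ end of Mmp14, 4.40% also occur in other genes. Mmp14 made up 54.1% ± 8.18 of the MMP reads in control and 55.1% ± 6.54 in AMD3100-treated eSMGs (SD, n = 3 each).

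Mmp2, the gelatinase that cuts denatured collagen and basement membrane collagen, was at 66.4, 68.7 and 39.6 CPM in control and at 64.7, 80.9 and 41.0 CPM in AMD3100-treated eSMGs. Replicate 3 was the low library in both groups. The log2FC was 0.10 ± 0.36 (SE). Mmp16, another membrane-type enzyme, was at 66.6, 57.5 and 38.0 CPM in control and at 53.2, 60.3 and 39.4 CPM in AMD3100, a log2FC of -0.08 ± 0.32 (SE). Mmp11 (stromelysin 3), typical of stromal fibroblasts and activated inside the cell by furin, had low replicate 3 libraries in both groups. Its control libraries were at 39.1, 39.4 and 14.0 CPM and its AMD3100 libraries at 43.0, 41.2 and 14.7 CPM. The Mmp11 levels of replicates 1 and 2 lay close together across both groups, as did those of replicate 3. The log2FC was 0.10 ± 0.52 (SE).

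The remaining MMPs that passed the filter had mean levels between 0.888 CPM (Mmp3) and 20.5 CPM (Mmp15). Mmp15, a membrane-type enzyme, had a log2FC of 0.16 ± 0.35 (SE), and Mmp19 of -0.14 ± 0.41 (SE). All 50-base stretches of the annotated 3′ end of Mmp19 also occur in a gene on the opposite strand, so that its counts are uncertain where strand was not used. Mmp9, the gelatinase of macrophages, neutrophils and osteoclasts, was at 10.6, 16.0 and 8.68 CPM in control and at 5.13, 19.4 and 11.2 CPM in AMD3100, and replicate 2 was the high library in both groups. Mmp24, a membrane-type enzyme of nervous tissue, was at 18.8, 11.4 and 21.9 CPM in control and at 7.37, 5.99 and 26.8 CPM in AMD3100. Both low AMD3100 libraries of Mmp24 lay below all controls, while AMD3100 replicate 3 lay above them, and a gene on the opposite strand overlaps its 3′ end. The log2FC of Mmp24 was -0.39 ± 0.60 (SE), at an unadjusted p of 0.538 in edgeR. It was -1.18 with replicates 1 and 2 only (edgeR unadjusted p = 0.0539) and -1.39 without AMD3100 replicate 3 alone (edgeR unadjusted p = 0.0213, adjusted p = 0.999). Without AMD3100 replicate 2 the log2FC of Mmp24 was -0.022 (edgeR unadjusted p = 0.9715). Without AMD3100 replicate 1 it was -0.085 (edgeR unadjusted p = 0.900). Mmp23 had between 0 and 29 counts. Of the MMPs that did not pass, Mmp17, Mmp21 and Mmp25 had 19, 2 and 11 counts in all, and Mmp28 (epilysin) had none.

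**Figure D2:**
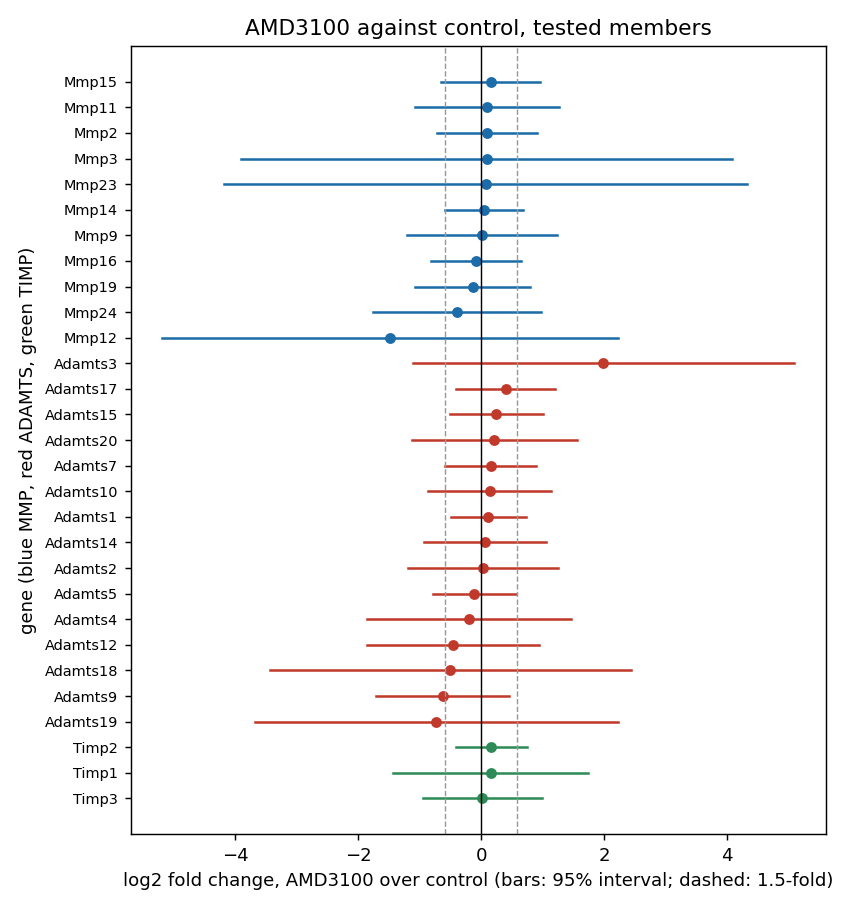
Log2FC of AMD3100 over control with its 95% interval from edgeR for the 29 members tested, grouped by family. Every interval includes 0, and the widest belong to members with mean levels under 5 CPM, such as Mmp23, Mmp12 and Adamts3.

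Among the ADAMTS, the hyalectanases, which cut versican and related proteoglycans, included Adamts1, the most abundant of the family. Adamts1 was at 121.3, 120.2 and 154.4 CPM in control and at 149.5, 146.6 and 133.6 CPM in AMD3100-treated eSMGs. Its groups overlapped because control replicate 3 was the highest library of all. The log2FC was 0.12 ± 0.27 (SE), and the 95% interval ran from 0.713-fold to 1.65-fold. Adamts15 was at 86.4, 80.7 and 126.0 CPM in control and at 94.12, 95.03 and 158.3 CPM in AMD3100. It was higher in AMD3100 for each same-numbered pair, with a log2FC of 0.25 ± 0.33 (SE), at an unadjusted p of 0.482 in edgeR. Adamts5, an aggrecanase, had a log2FC of -0.11 ± 0.30 (SE). Adamts9 was lower in AMD3100 in all 3 pairs, at 11.5 ± 4.47 CPM in control and 7.45 ± 1.94 CPM in AMD3100 (SD, n = 3 each), a log2FC of -0.63 ± 0.48 (SE). Adamts4 and Adamts20 had log2FCs of -0.20 and 0.22. With each library left out these ranged from -0.98 to 0.09 and from -0.11 to 0.59. Adamts8 did not pass the filter, with counts in control replicate 1 and in AMD3100 replicates 1 and 3.

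Adamts2, Adamts3 and Adamts14 encode the procollagen N-proteinases. Adamts2 was at 21.9, 24.4 and 79.8 CPM in control and at 36.9, 29.1 and 62.8 CPM in AMD3100-treated eSMGs. Both replicate 3 libraries stood above the other 4, and the log2FC was 0.03 ± 0.54 (SE). Adamts3 had 2, 25 and 1 counts in control and 55, 43 and 11 counts in AMD3100, equal to 0.175, 1.82 and 0.0997 CPM against 3.17, 3.96 and 1.35 CPM. Its level was higher in AMD3100 in all 3 pairs, although AMD3100 replicate 3 lay below control replicate 2. The fitted log2FC of 1.99, the largest of any member, had a standard error of 1.37 and a 95% interval from 0.462-fold to 34.0-fold. With each library left out it ranged from 1.49 to 4.25, the latter without control replicate 2 (edgeR unadjusted p = 0.0338, adjusted p = 0.9999). Adamts14 was at 9.69 ± 2.47 and 10.1 ± 2.74 CPM (SD, n = 3 each).

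Among the other ADAMTS, Adamts17 was the most abundant, at 53.8, 50.3 and 80.0 CPM in control and at 77.3, 54.1 and 111.5 CPM in AMD3100. All 3 same-numbered pairs had the higher level in AMD3100, and its log2FC was 0.40 ± 0.35 (SE), at an unadjusted p of 0.287 in edgeR. With the replicate block its log2FC was 0.37 (edgeR unadjusted p = 0.0573). Adamts10, which binds fibrillin, was at 43.3, 36.7 and 20.7 CPM in control and at 52.7, 39.5 and 18.5 CPM in AMD3100, with replicate 3 the low library of each group. Adamts7, which cuts cartilage oligomeric matrix protein, was at 43.9, 23.5 and 34.3 CPM in control and at 41.0, 32.5 and 39.8 CPM in AMD3100, with overlapping groups. Their log2FCs were 0.14 ± 0.44 (SE) and 0.16 ± 0.32 (SE). The 3′ end of Adamts7 is overlapped on the opposite strand by Tbc1d2b, which holds 12.4% of its 50-base stretches. Adamts19 was, like Adamts9 and Mmp12, lower in AMD3100 in all 3 pairs. In all, 3 of the 29 members were lower in every pair (10.3%, against 14.6% of all genes tested) and 5 were higher (17.2%, against 15.7%), namely Timp2, Mmp11, Adamts3, Adamts15 and Adamts17. Adamts12 and Adamts19 had log2FCs of -0.46 and -0.73, both smaller in size than their standard errors of 0.62 and 1.30. Adamts18 had 107 and 79 counts in control replicates 1 and 2 but 1 in control replicate 3, and 37, 87 and 5 in the AMD3100 libraries. Adamts13, which cuts von Willebrand factor, and Adamts16 had 4 and 10 counts in all, and Adamts6 had none.

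Timp2 was the most abundant member of all and the only one whose groups did not overlap (chr11:118301061-118355411). TIMP2 blocks MMPs and also links pro-MMP2 to MMP14 at the cell surface. Control libraries were at 485, 500 and 440.3 CPM and AMD3100 libraries at 548.0, 519.2 and 534.6 CPM. All 3 AMD3100 libraries thus stood above all 3 controls, by means of 534 ± 14.42 against 475 ± 31.1 CPM (SD, n = 3 each). The log2FC was 0.17 ± 0.26 (SE), at an unadjusted p of 0.527 in edgeR, with a 95% interval from 0.752-fold to 1.68-fold. With 3 libraries a group, the smallest two-sided p of an exact permutation test is 0.1, and Timp2 reached it. Of all genes tested, 7.44% had groups that did not overlap (3.28% with AMD3100 above and 4.17% with AMD3100 below), so that 1 of 29 members is no more than the background.

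Timp3, the inhibitor that stays bound to the matrix and also blocks several ADAMTS, was at 85.7, 91.1 and 38.9 CPM in control and at 102.7, 72.3 and 43.7 CPM in AMD3100-treated eSMGs. Replicate 3 was again the low library of both groups, and the log2FC was 0.02 ± 0.43 (SE). Timp1 was at 12.7, 9.40 and 6.88 CPM in control and at 2.54, 21.2 and 8.60 CPM in AMD3100. The 3 control values of Timp1 lay inside the range of the AMD3100 values. Timp4 had 25 counts in all, 7 in control replicate 3 and 18 in AMD3100 replicate 1. The 3′ ends of Timp1, Timp3 and Timp4 are overlapped on the opposite strand by the synapsin genes Syn1, Syn3 and Syn2. Timp2 held 85.6% ± 4.19 of the TIMP reads in control and 86.5% ± 3.98 in AMD3100-treated eSMGs (SD, n = 3 each).

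Within each family the summed levels of the groups overlapped, while the sum over all 46 members did not. The MMPs summed to 463 ± 29.3 CPM in control and 472 ± 20.1 CPM in AMD3100-treated eSMGs (SD, n = 3 each), with libraries between 435.3 and 493.6 CPM. The ADAMTS summed to 484 ± 73.0 and 533 ± 64.0 CPM, and the TIMPs to 557 ± 61.3 and 618 ± 34.0 CPM. For each family the libraries of the groups overlapped, and the means of MMPs and ADAMTS differed by less than the SD of either group. The difference of the TIMP means was close to the SD of the control and larger than that of AMD3100. All members together summed to 1555, 1450 and 1507 CPM in control and to 1633, 1568 and 1665 CPM in AMD3100, or 1504 ± 52.6 and 1622 ± 49.2 CPM (SD, n = 3 each). Every AMD3100 library thus had a higher total than every control, although AMD3100 replicate 2 (1568 CPM) lay close to control replicate 1 (1555 CPM). No test of this sum is given, and Timp2 held the largest part of it. The ratio of TIMP to MMP reads was 1.21 ± 0.163 in control and 1.31 ± 0.127 in AMD3100 (SD, n = 3 each).

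**Figure D3:**
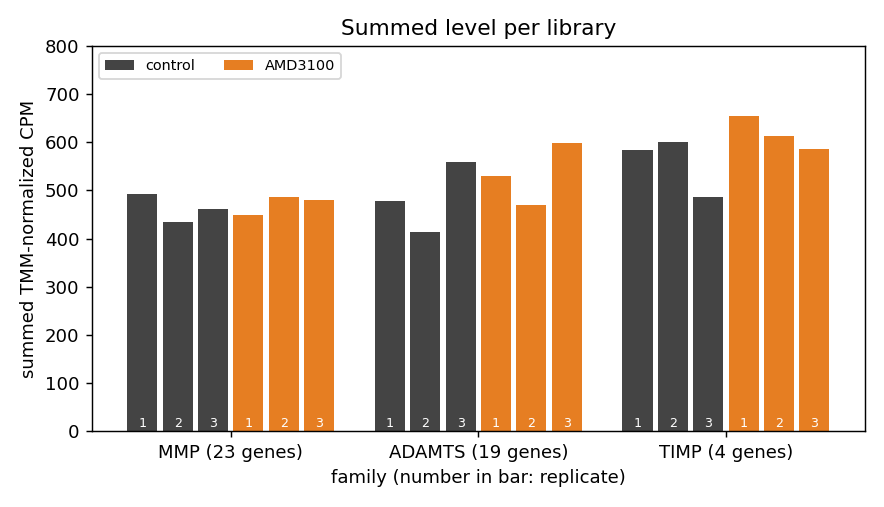
Summed TMM-normalized CPM of the 23 MMPs, 19 ADAMTS and 4 TIMPs in each library, with control in grey and AMD3100 in orange and the replicate number in each bar. MMP sums lay between 435.3 and 493.6 CPM in all 6 libraries.

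How small a change could have been seen differed among the members. For 9 of the 29 (Timp2, Timp3, Mmp14, Mmp2, Mmp15, Mmp16, Adamts1, Adamts5 and Adamts7) the 95% interval lay inside 2-fold in either direction, against 21.3% of all genes tested. For the other 20 the interval reached beyond 2-fold. With the replicate block most intervals were narrower, and 16 members lay inside 2-fold, against 44.2% of all genes tested. Mmp11, for example, went from 0.475-fold to 2.42-fold without the block and from 0.762-fold to 1.496-fold with it. For Adamts3, Mmp12 and Adamts18 the interval was wider with the block on the log scale. That of Adamts3 went from 0.462-fold to 34.0-fold without the block and from 0.591-fold to 88.0-fold with it. The median coefficient of variation over the 6 libraries was 37.8% for the members tested and 41.2% for all genes tested. It was lowest for Timp2 (7.70%), Adamts1 (10.7%) and Mmp14 (13.5%).

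For 14 of the 29 members tested, both replicate 3 libraries stood apart from the other 4, whatever the treatment. Both replicate 3 libraries lay below the other 4 for 7 members (Mmp2, Mmp11, Mmp16, Timp3, Adamts4, Adamts10 and Adamts18) and above them for 7 (Mmp14, Mmp19, Mmp23, Mmp24, Adamts2, Adamts15 and Adamts17). These are 24.1% of the members in each direction, where 21.1% of all genes tested lay below and 23.1% above, so that the members followed the background. The split was read from these data, and no test is given. Both replicate 3 libraries also had equal counts in 2.14% of the genes detected in either, where other pairs of libraries had between 0.491% and 0.751%. Whether they share material was not tested. The ratio of replicate 3 to the mean of replicates 1 and 2 was set out separately for the groups. On the log2 scale it was -1.49 in control and -1.51 in AMD3100 for Mmp11, and -1.18 and -1.0 for Timp3. For Adamts2 it was 1.78 and 0.93. Of the 23 members with a mean of at least 5 CPM, 17 had the same sign in both groups (73.9%), as did 79.9% of all genes tested at that level.

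**Figure D4:**
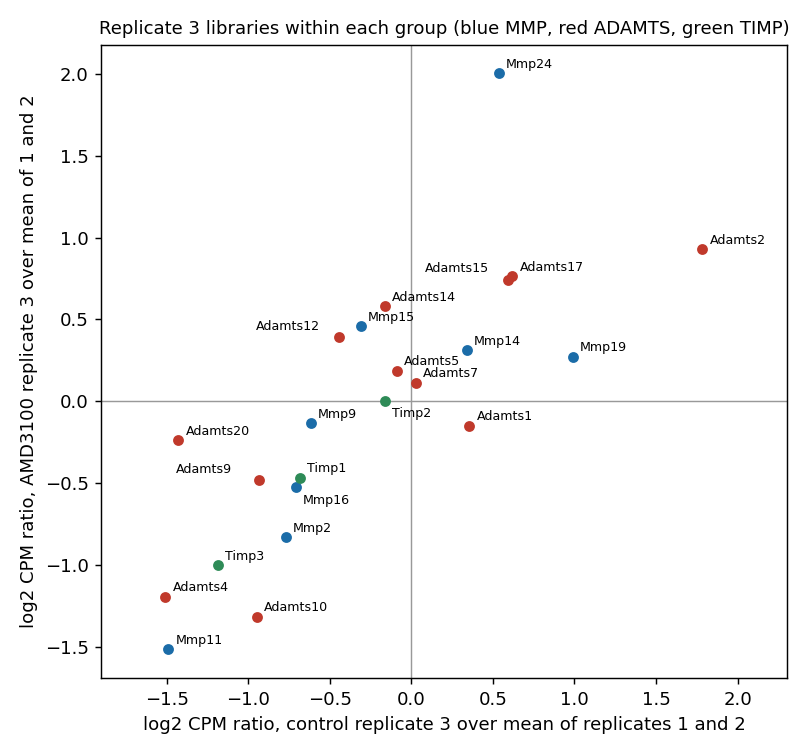
Log2 ratio of CPM in replicate 3 over the mean of replicates 1 and 2, for control (x axis) and AMD3100 (y axis), for the 23 members with a mean of at least 5 CPM. 7 members lie above 0 in both groups, among them Adamts2 and Mmp24, and 10 below 0, among them Mmp11 and Timp3.

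Some markers of cell types differed between the same libraries, but seldom all markers of a type. The 7 mesenchyme markers (Col3a1 the most abundant) were all detected and summed to between 2446 and 2504 CPM in the 4 libraries of replicates 1 and 2, but to 1022 CPM in control replicate 3 and 1037 CPM in AMD3100 replicate 3. Col3a1, Col1a1 and Pdgfra lay below in both replicate 3 libraries, while Osr1 was at 165.1 CPM there and at 161 CPM in the others, and Pdgfrb at 27.7 and 17.5 CPM. The 6 skeletal muscle markers (Myog the most abundant) summed to between 46.6 and 102.6 CPM in replicates 1 and 2 and to 738 and 889 CPM in replicate 3, and 5 of the 6 lay above in both replicate 3 libraries. The 4 smooth muscle and pericyte markers, led by Acta2, summed to between 45.4 and 71.1 CPM and to 189 and 231 CPM. Acta2 made up nearly all of this. Rgs5 also lay above in both replicate 3 libraries (mean 0.955 against 0.0 CPM), while Myh11 (0.184 against 1.02 CPM) and Cnn1 (0.817 against 1.51 CPM) had lower means in replicate 3. The 9 macrophage markers counted, led by C1qa, were all detected and summed to between 77.5 and 108.9 CPM and to 258 and 184 CPM. C1qa, Lyz2, Cd68 and Fcgr1 lay above in both replicate 3 libraries, Adgre1 and Ptprc lay below, and C1qb was at 9.43 against 9.06 CPM. The part of these cell types in the levels of the members was not tested. The 7 epithelial markers, led by Krt15, summed to 1849, 1805 and 1292 CPM in control and to 2209, 1880 and 3246 CPM in AMD3100-treated eSMGs, and all were detected. Krt15 carried this sum, while Epcam, Krt5, Krt14 and Sox10 lay below in both replicate 3 libraries. Of 56 different markers tested, 4 had groups without overlap (7.14%, where 7.44% of all genes tested did), Cdh1 and Acp5 with AMD3100 above and Osr1 and C1qb with AMD3100 below. The lowest unadjusted p among them in edgeR was that of Cdh1, 0.108, and 0.0253 with the replicate block. With the block, 3 of the 56 markers passed both thresholds, where 4.39% of all genes tested did, and none of the 3 passed without it. They were the epithelial keratin Krt15 (log2FC 0.62, edgeR unadjusted p = 0.0240), the mesenchymal factor Twist1 (log2FC -0.97, edgeR unadjusted p = 0.0193) and the muscle factor Myog (log2FC -1.17, edgeR unadjusted p = 0.00442). The lowest adjusted p of the 3 was 0.468 (Myog). Without the block the log2FCs of Krt15, Twist1 and Myog were 0.72, -0.87 and -0.24. With each library left out, that of Myog ranged from -4.09 to 2.09, while no sign turned for Krt15 or Twist1. Neutrophil markers, of which Elane was at 0, summed to at most 44.2 CPM, and bone and osteoclast markers, of which Ocstamp was at 0, to at most 34.0 CPM. Their most abundant genes were S100a9 and Acp5. Cartilage markers, led by Col9a1, summed to between 79.6 and 100.9 CPM in replicates 1 and 2 and to 38.3 and 29.8 CPM in replicate 3, where Col2a1, Col9a1 and Col11a1 lay below in both libraries. Among nerve markers, of which Tubb3 was the most abundant, Tubb3 and Stmn2 lay above and Elavl4 and Sox10 below in both replicate 3 libraries. Endothelial markers, led by Kdr, summed to between 15.6 and 44.4 CPM. Erythroid markers, led by Hba-a1, summed to 4851, 13830 and 5789 CPM in control and to 4808, 7379 and 7525 CPM in AMD3100, with control replicate 2 the highest, and 0 of the 6 passed both thresholds.

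When replicate 3 was left out of both groups, which was decided once the data had been seen, 0 members passed both thresholds, where 613 of all genes tested did (4.39%). Of the members then tested, 13 were higher and 15 lower in AMD3100-treated eSMGs.

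Genes that activate, inhibit or clear these proteases were taken from a list of 25, of which 17 were tested. In edgeR's test 1 passed both thresholds, lower in AMD3100 (1.28% of all genes tested were), and none higher (0.397% of all). Groups did not overlap for 3 of the 17 tested, all with AMD3100 below (4.17% of all genes tested), and for none with AMD3100 above (3.28% of all). The median log2FC was -0.21, with 5 higher and 12 lower. The gene that passed was Plat, tissue plasminogen activator, which turns plasminogen into plasmin. It was read 48, 138 and 108 times in control and 4, 29 and 16 times in AMD3100, equal to 8.34 ± 3.60 and 1.62 ± 1.26 CPM (SD, n = 3 each). Each AMD3100 library was below each control, with a log2FC of -2.37 ± 0.92 (SE) and an unadjusted p of 0.0295 in edgeR. Plau, the urokinase-type activator, was counted 25, 33 and 74 times in control and 10, 0 and 16 times in AMD3100, again without overlap in CPM, with a log2FC of -2.25 ± 1.41 (SE), at an unadjusted p of 0.147 in edgeR. It ranged from -3.70 (without AMD3100 replicate 3) to -1.43 (without control replicate 3). A2m, a plasma protein that traps proteases, also had groups without overlap, at a mean of 1.46 CPM in control and 0.533 CPM in AMD3100 (edgeR unadjusted p = 0.314). The log2FC of A2m, -1.43, ranged from -2.24 (without AMD3100 replicate 2) to -1.0 (without AMD3100 replicate 3). Of the 7 genes of the list with counts but under the filter, 3 had AMD3100 above in CPM, where 1.53% of the 4697 such genes in the files did. Papln had 0, 0 and 5 counts in control against 37, 15 and 7, and Adamtsl3 no count in control against 19, 20 and 5. Adamtsl5 had 2, 0 and 0 counts in control against 12, 39 and 2, so that its order rests on library size at 2 counts, under the floor of 3. The most abundant gene of the list, Serpine2, an inhibitor of plasminogen activators and thrombin, was at 338 and 373 CPM and had a log2FC of 0.14 ± 0.39 (SE). Adamtsl2 had no count. Plat lost its call with replicates 1 and 2 only (log2FC -2.32, edgeR unadjusted p = 0.0938), without control replicate 2 (log2FC -2.22, edgeR unadjusted p = 0.0778) and without control replicate 3 (log2FC -2.14, edgeR unadjusted p = 0.0836).

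Of 22 other matrix proteases and their helpers, 17 were tested, with 8 higher and 9 lower and a median log2FC of -0.02. Ctsk, the collagen-cutting cathepsin K, was the 1 gene that passed both thresholds, where 1.28% of all genes tested did so with AMD3100 lower. It was at 13.13, 16.53 and 9.673 CPM in control and at 6.22, 3.32 and 3.19 CPM in AMD3100-treated eSMGs. No AMD3100 library reached the lowest control, and the log2FC of -1.62 ± 0.50 (SE) had an unadjusted p of 0.0104 in edgeR. Leaving out 1 library at a time gave -2.01 to -1.42. Bmp1, the procollagen C-proteinase, was at 39.5 ± 3.95 CPM in control and 58.2 ± 6.07 CPM in AMD3100 (SD, n = 3 each), with no overlap and a log2FC of 0.56 ± 0.27 (SE), at an unadjusted p of 0.0660 in edgeR. With the replicate block the unadjusted p of Bmp1 was 0.0143 (edgeR, adjusted p = 0.651), and with replicates 1 and 2 only Bmp1 passed both thresholds (log2FC 0.65, edgeR unadjusted p = 0.0253). Htra1, a secreted serine protease, had a log2FC of 0.53 (edgeR unadjusted p = 0.172) and of 0.57 with the block (edgeR unadjusted p = 0.0465, adjusted p = 0.738). Dpp4 had groups without overlap at 1.07 and 3.18 CPM (edgeR unadjusted p = 0.162). Of the 17 tested, 2 thus had groups without overlap and AMD3100 above (3.28% of all genes tested). With AMD3100 below there was 1 (4.17% of all). Ctsb, the most abundant, had a log2FC of -0.15 ± 0.27 (SE).

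Proteins that these enzymes are known to cut gave 20 tested genes of 23, with 9 higher and 11 lower and a median log2FC of -0.01. None passed both thresholds, where 1.68% of all genes tested did. Col4a1, a basement membrane collagen, had a log2FC of 0.51 (edgeR unadjusted p = 0.344) and of 0.46 with the block (edgeR unadjusted p = 0.0160, adjusted p = 0.682). Col3a1, the most abundant, was at 1403, 1421 and 406.5 CPM in control and at 1409, 1393 and 414.7 CPM in AMD3100, with both replicate 3 libraries low. Of 16 transcription factors known to act on MMP and TIMP promoters, 14 were tested, with 10 higher and 4 lower. Again none passed both thresholds (1.68% of all genes tested). Among them Jund was the most abundant, at 144 ± 63.2 CPM in control and 145 ± 50.4 CPM in AMD3100 (SD, n = 3 each).

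Cxcr4, the target of AMD3100, was at 28.9, 10.3 and 30.3 CPM in control and at 17.7, 15.0 and 16.2 CPM in AMD3100-treated eSMGs, a log2FC of -0.50 ± 0.44 (SE). Its ligand Cxcl12 was at 114.5, 106.6 and 174.6 CPM in control and at 98.1, 123.1 and 79.9 CPM in AMD3100. The groups of both genes overlapped.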

How the data were processed

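Counts of 50 bp single reads from 3′ mRNA libraries, deposited by the authors per gene symbol without normalization, were used for 3 control and 3 AMD3100 libraries. The submitters' processing notes name Bowtie2, edgeR and mm10, and the gene annotation and the use of strand are not given in the sources used here. Of 23282 lines, 22 that repeated an earlier line exactly were left out. The families described and the gene lists were chosen with earlier results of these data known, while membership in a family rested on the symbol alone. The main test was edgeR 4.0.16 (R 4.3.3) with filterByExpr, TMM, glmQLFit, glmQLFTest and Benjamini-Hochberg adjustment over 13610 genes. Genes were called at p under 0.05 with more than 1.5-fold change, as in the text of the study, whose captions also give a larger fold limit. The study's own equal-variance test after quantile normalization was not used, since it is not made for counts. Standard errors came from the coefficient and its F, and intervals are 95%. The common biological coefficient of variation was 0.579.

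Replicate numbers are shared by both groups. Deviations from the group means correlated across genes at 0.185, 0.171 and 0.584 for same-numbered libraries 1, 2 and 3, but also at 0.198 and 0.146 between replicates 1 and 2. The numbers were used to pair the samples because every same-numbered correlation was over 0.1. The crossed correlations of replicates 1 and 2 passed this rule too, so that it cannot show pairing for these replicates. Only the correlation of replicate 3 stood clear of the crossed ones. For replicates 1 and 2, same-numbered pairs and the block therefore rest on the labels alone. Blocked values are given where they moved a count of calls or took a gene of the lists across an unadjusted p of 0.05, except for Krt14 (p 0.356 without and 0.0403 with the block, edgeR).

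Named with every library's value were the 12 members of highest mean CPM and any with an unadjusted p under 0.05 or groups without overlap. From each list the most abundant gene and those with such p or groups were named, whether or not they passed the filter. Per-library values of other members were chosen for printing after they were seen. The alternatives tried were upper quartile normalization, DESeq2 1.42.0, quantile normalization followed by voom (limma 3.58.1), 2 filters, the block and each library left out. Replicates 1 and 2 only, and Rn45s left out, were chosen after seeing the data. The fits were tested on simulated data. Promoters and positions are RefSeq, GRCm38.p6, the assembly of mm10. Overlaps of 3′ ends (the last 300 bases) are from GENCODE vM1 on NCBIM37, from which no coordinates are printed, and shared stretches are exact matches of 50 bases. The planned search of protein sequences was not run. No library was identical to another, and the pair of replicate 3 libraries shared most equal counts. Results that need 1 withheld item are not reported here.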

Additional observations from a re-analysis of the deposited data

How the results depend on the processing

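The count of members past both thresholds (0 in edgeR's test) stayed at 0 under DESeq2, both normalizations, both filters, the replicate block, replicates 1 and 2 only and Rn45s left out, and lay between 0 and 1 with each library left out (Mmp24 without AMD3100 replicate 3, Adamts3 without control replicate 2). No member had an adjusted p under 0.05 in any of the 14 alternatives. Members higher in AMD3100 numbered 13 to 19 and lower 10 to 17 with each library left out. The all-gene count of 228 became 598 with the replicate block and 613 with replicates 1 and 2 only, and lay between 163 and 547 with each library left out (547 without control replicate 3, 451 without AMD3100 replicate 3). Genes with an adjusted p under 0.05 were 0 in edgeR's test, 5 with DESeq2 and 3 with the replicate block, which changed no call of a member. The cause of these shifts was not tested. Without a filter, 26 members were higher and 13 lower.

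Signs of small log2 fold changes turned with single libraries. With each library left out they ranged from -0.21 to 0.45 for Adamts10, -0.061 to 0.48 for Adamts15, -0.37 to 0.90 for Adamts2, -0.049 to 0.38 for Adamts7, -0.25 to 0.44 for Mmp11, -0.075 to 0.18 for Mmp14, -0.28 to 0.087 for Mmp16, -0.13 to 0.31 for Mmp2, -0.31 to 0.27 for Timp3, -0.22 to 0.55 for Serpine2, -0.40 to 0.37 for Col3a1 and -0.31 to 0.26 for Jund. With replicates 1 and 2 only, Timp3 was at -0.018 and Jund at -0.059, and with the block Col3a1 was at 0.0016. Plat lost its call in 3 alternatives and Bmp1 gained one, as given above, and Plat, Plau, A2m and Dpp4 were not tested where 10 counts were needed in every library. No sign turned for Timp2 (0.12 to 0.21), Adamts1, Adamts17, Plat, Plau or Ctsk. The log2 ratio of summed MMP levels, 0.03, ranged from -0.02 to 0.07 with each library left out, that of ADAMTS (0.14) from 0.04 to 0.26 and that of TIMPs (0.15) from 0.06 to 0.21. The 6 tested members with a mean under 5 CPM had the widest intervals of all members.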

Other observations

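Ackr3, the second receptor of CXCL12, was at 5.78, 0.728 and 1.69 CPM in control and at 6.22, 6.73 and 7.0 CPM in AMD3100-treated eSMGs, so that all AMD3100 libraries lay above all controls. The log2FC was 1.28 ± 0.82 (SE), at an unadjusted p of 0.155 in edgeR. It ranged from 0.83 (without control replicate 2) to 2.45 (without control replicate 1). Plg, which encodes plasminogen and is made mainly by the liver, had 69 counts in control replicate 3 and 39 in AMD3100 replicate 3 and 0 in the other 4 libraries. Both genes were chosen after their values were seen.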
